A study of Mus musculus with 5 samples.

Results

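Genes of DNA replication and of deoxynucleotide synthesis were examined in mouse natural killer T (NKT) cells that had developed with or without interleukin-15. The set holds 42 genes named by symbol: the helicase and origin licensing factors, clamp, clamp loader and polymerase subunits, lagging-strand enzymes, enzymes of the nucleotide supply, and regulators of entry into S phase. All 42 had a probe that could be named through its RefSeq transcript, of 20009 genes with such a probe. Each gene was read from 1 probe, the one with the highest mean log2 signal over the 5 arrays. Genes entered the test when 2 or more arrays read their probe well above background, which held for 40 of the 42 genes and for 11991 genes in all. The other two, Orc1 and Ccne2, are given below without a test.

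NKT cells are T lymphocytes whose receptor binds lipid antigens on CD1d. The study asked how the expression of thymic NKT cells from mice lacking interleukin-15 (IL15ko, genotype IL15-/-) differs from that of wild-type mice, both on the C57BL/6 background. There were 3 wild-type and 2 IL15ko samples, each sorted from 10 pooled thymi as CD3e-positive, CD1d-tetramer-positive cells and hybridised to 1 one-colour Agilent array. The labels used here give neither the age nor the sex of the animals, and they do not say whether the pools of a group were prepared apart, so the p-values rest on a spread between samples that may be technical.

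Replication starts at origins bound by the origin recognition complex, where Cdc6 and Cdt1 load the ring-shaped Mcm helicase in G1 phase. At the onset of S phase Cdc45, the GINS complex and Mcm10 turn the loaded ring into an active helicase, and polymerases held by the Pcna clamp copy both strands. Ribonucleotide reductase and thymidylate synthase supply the deoxynucleotides. Many of these genes are transcribed in late G1 and S phase under the control of E2F transcription factors, so their RNA is abundant in dividing cells and low in resting ones. NKT cells divide as they develop in the thymus and become more quiescent as they mature.

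Because E2F factors are known regulators of this set, the RefSeq promoter of each gene (250 bases before to 50 after the transcription start, mouse assembly GRCm38.p6) was searched for 4 E2F-type words, TTTGGCGC, TTTCGCGC, TTTCCCGC and TTTGCCGC, on both strands, where words on opposite strands may overlap each other. A promoter sequence was at hand for 34 of the 42 genes, and 13 of these (38.2%) held at least 1 word, against 445 of 9631 tested genes (4.62%) and 704 of all 27025 genes with a promoter sequence (2.6%). The CHR element (TTTGAA or TTCGAA, both strands), which is known from promoters of mitotic genes, was in 17.6% of the promoters of this set and in 16.7% of those of all tested genes. A CCAAT word on either strand was in 61.8% and 42.9%. In a separate list of mitosis genes with 16 promoters, E2F-type words were in 6.25%, CHR words in 75% and CCAAT words in 87.5%. The genes were chosen by function and some have several promoters (39 promoters for the 34 genes), so these shares are descriptions, and a match is not a binding site.

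Promoters are shown, with the matched E2F-type words in capitals: those of the 4 genes that rose in IL15ko cells and held a word, and, for contrast, that of Mcm6, which held 3 words and did not pass the test. The promoter of Rrm2, the gene with the largest rise among those measured on all 5 arrays, held none, and its capitals mark the single CCAAT word. They lie at chr8:75109259-75109558 on the plus strand (Mcm5), chr11:98907901-98908200 on the plus strand (Cdc6), chrX:93632106-93632405 on the minus strand (Pola1), chr4:126556730-126557029 on the plus strand (Clspn), chr1:128359656-128359955 on the minus strand (Mcm6) and chr12:24708004-24708303 on the plus strand (Rrm2), all in GRCm38.p6, and are written 5′ to 3′ in the direction of transcription.
Mcm5: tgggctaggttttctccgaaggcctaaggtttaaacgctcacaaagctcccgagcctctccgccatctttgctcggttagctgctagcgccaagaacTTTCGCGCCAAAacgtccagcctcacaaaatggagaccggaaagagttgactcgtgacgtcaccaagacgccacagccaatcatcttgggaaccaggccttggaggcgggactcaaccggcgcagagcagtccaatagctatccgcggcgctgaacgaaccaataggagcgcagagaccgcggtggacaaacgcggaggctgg
Cdc6: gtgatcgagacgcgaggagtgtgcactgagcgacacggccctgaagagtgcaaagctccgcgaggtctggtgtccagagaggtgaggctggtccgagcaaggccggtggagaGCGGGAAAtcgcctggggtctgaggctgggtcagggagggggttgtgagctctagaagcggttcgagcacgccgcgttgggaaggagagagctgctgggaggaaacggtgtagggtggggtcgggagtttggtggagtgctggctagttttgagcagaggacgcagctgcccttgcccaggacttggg
Pola1: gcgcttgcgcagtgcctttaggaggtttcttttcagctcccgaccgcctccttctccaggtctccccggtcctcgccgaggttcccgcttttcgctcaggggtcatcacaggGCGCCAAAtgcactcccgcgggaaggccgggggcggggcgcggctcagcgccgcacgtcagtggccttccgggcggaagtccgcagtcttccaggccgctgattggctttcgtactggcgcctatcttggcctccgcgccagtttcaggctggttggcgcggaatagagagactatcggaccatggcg
Clspn: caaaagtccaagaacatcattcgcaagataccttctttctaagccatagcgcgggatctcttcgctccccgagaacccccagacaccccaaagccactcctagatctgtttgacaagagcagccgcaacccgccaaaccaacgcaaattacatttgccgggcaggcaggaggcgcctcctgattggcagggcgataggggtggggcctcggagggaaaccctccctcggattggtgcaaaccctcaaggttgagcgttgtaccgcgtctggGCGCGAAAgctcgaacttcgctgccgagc
Mcm6: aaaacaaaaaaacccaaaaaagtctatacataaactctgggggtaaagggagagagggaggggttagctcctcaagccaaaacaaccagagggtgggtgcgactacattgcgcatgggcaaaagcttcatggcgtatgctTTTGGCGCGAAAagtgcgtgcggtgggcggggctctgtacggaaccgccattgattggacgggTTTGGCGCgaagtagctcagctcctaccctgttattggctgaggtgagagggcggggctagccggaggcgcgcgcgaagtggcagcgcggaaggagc
Rrm2: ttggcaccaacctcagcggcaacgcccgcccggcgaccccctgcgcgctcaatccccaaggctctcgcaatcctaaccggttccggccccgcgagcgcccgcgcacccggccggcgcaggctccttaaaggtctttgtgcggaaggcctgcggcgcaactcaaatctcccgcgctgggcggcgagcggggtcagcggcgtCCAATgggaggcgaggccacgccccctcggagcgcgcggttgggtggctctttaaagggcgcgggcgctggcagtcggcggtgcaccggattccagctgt
The Mcm5 and Mcm6 promoters both hold a pair of words that overlap on opposite strands. Counted from the transcription start, the words of Mcm5 began at -153 and -149, those of Cdc6 and Pola1 both at -138, and that of Clspn at 21. Among the genes that rose, 4 of the 9 with a promoter sequence held an E2F-type word, and among the tested genes that did not pass 8 of 24 did. The 4 include Clspn, which entered the test only through its IL15ko signal.

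Facts of the series that bear on these values are the following. Between 33.9% and 49.6% of the 55681 probes were well above background per array, the lowest share being that of IL15ko 2. Wild-type 1 and 2 were closer to each other (robust SD of their log2 difference over tested genes 0.17) than other pairs of a group (0.344 to 0.381). All 5 arrays were on 1 slide and 1 scan; the position codes in the file headers begin with 1 for 4 arrays and with 2 for IL15ko 2. The Il15 probe stayed at background on all 5 arrays and checks nothing. All 7 NKT and T-cell markers were well above background on all 5 arrays, Cd3e with values between 4.10 and 4.29. Zbtb16, which encodes the NKT lineage factor PLZF, and Cd5 rose in IL15ko, 2.83-fold and 1.58-fold (limma adjusted p = 0.0161 and 0.0398), and Cd3g had a log2 difference of -0.77 with separate groups (limma adjusted p = 0.235). Rag1, Rag2, Ptcra, Cd8a and Cd8b1, markers of immature thymocytes, stayed at background throughout. The summed level of that list of 8 genes was 0.549 to 0.642 in wild-type and 0.508 to 0.607 in IL15ko. Cd1d1, its brightest probe at -1.19 to -0.98, dominated the sum. Dntt of the same list was above background on all 5 arrays and varied, at -3.12, -3.34 and -5.20 in wild-type and -4.57 and -3.05 in IL15ko. The summed level of 8 myeloid genes was 34.6 to 53.6 in wild-type and 34.7 and 51.2 in IL15ko, with Lyz2, Itgax, Adgre1 and Flt3 at background. Siglech, the brightest probe of that list at 4.91 to 5.58, dominated the sum. Csf1r had a log2 difference of -2.29 with separate groups (limma adjusted p = 0.0509). Itgam went the other way with overlapping groups, at 1.945, 2.35 and 1.884 in wild-type and 2.137 and 3.391 in IL15ko. Its log2 difference was 0.7 (limma adjusted p = 0.312). Of B-cell genes Ms4a1, Cd79a, Pax5 and Ebf1 were at background, and Cd79b stood at -4.54, -5.28 and -4.86 in wild-type and at -3.88 and -4.06 on the IL15ko arrays (log2 difference 0.92, limma adjusted p = 0.0882). The stromal and erythroid lists summed to 0.073 or less on every array. Of 6 NK-cell genes Ncr1 was at background and Eomes was above it on 1 array. The summed level was 14.6 to 15.9 in wild-type and 2.78 and 3.64 in IL15ko. Klra8, Klre1 and Klra4 fell, with log2 differences of -2.49, -4.99 and -1.36 (limma adjusted p = 0.0085, 0.00881 and 0.00941). Irf8 had one of -0.59 (limma adjusted p = 0.0699). The part of these markers in the replication result was not tested. Xist, the RNA of the inactive X, was 24.7-fold higher in IL15ko, with each wild-type array entered at its dimmest signal above background. Eif2s3y and Ddx3y on the Y chromosome had log2 differences of -1.98 and -1.36. These genes were chosen after their values were seen, and the sex of the pools, which is not given, cannot be told apart from the genotype. Pola1 of the set lies on the X chromosome.

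Where genes of the set changed, they rose in IL15ko cells. Values are log2 of the processed signal minus the 75th percentile of each array, so 0 marks a bright probe of that array, and they are compared within a gene only, because probes differ in brightness. In limma's fit over all 11991 genes, 11 of the 40 tested genes rose at a Benjamini-Hochberg adjusted p under 0.05, against 3.75% of all tested genes, and 0 fell, against 3.58% (none of the 40 had an unadjusted p under 0.05 in that direction). In either direction 7.33% of all tested genes passed. A further 8 of the 40 (20%) had adjusted p-values between 0.05 and 0.075, where 4.14% of all genes lay. The edge of 0.075 was not planned, so this count is a description. The difference was above 0 in 38 of the 40, against 51.4% of all genes tested, and the median was 0.64 on the log2 scale (1.56-fold), against 0.01. Clspn was tested only because it was above background in IL15ko. Over the 37 genes well above background on all 5 arrays 10 rose, against 4.1% of all such genes.

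**Figure D1:**
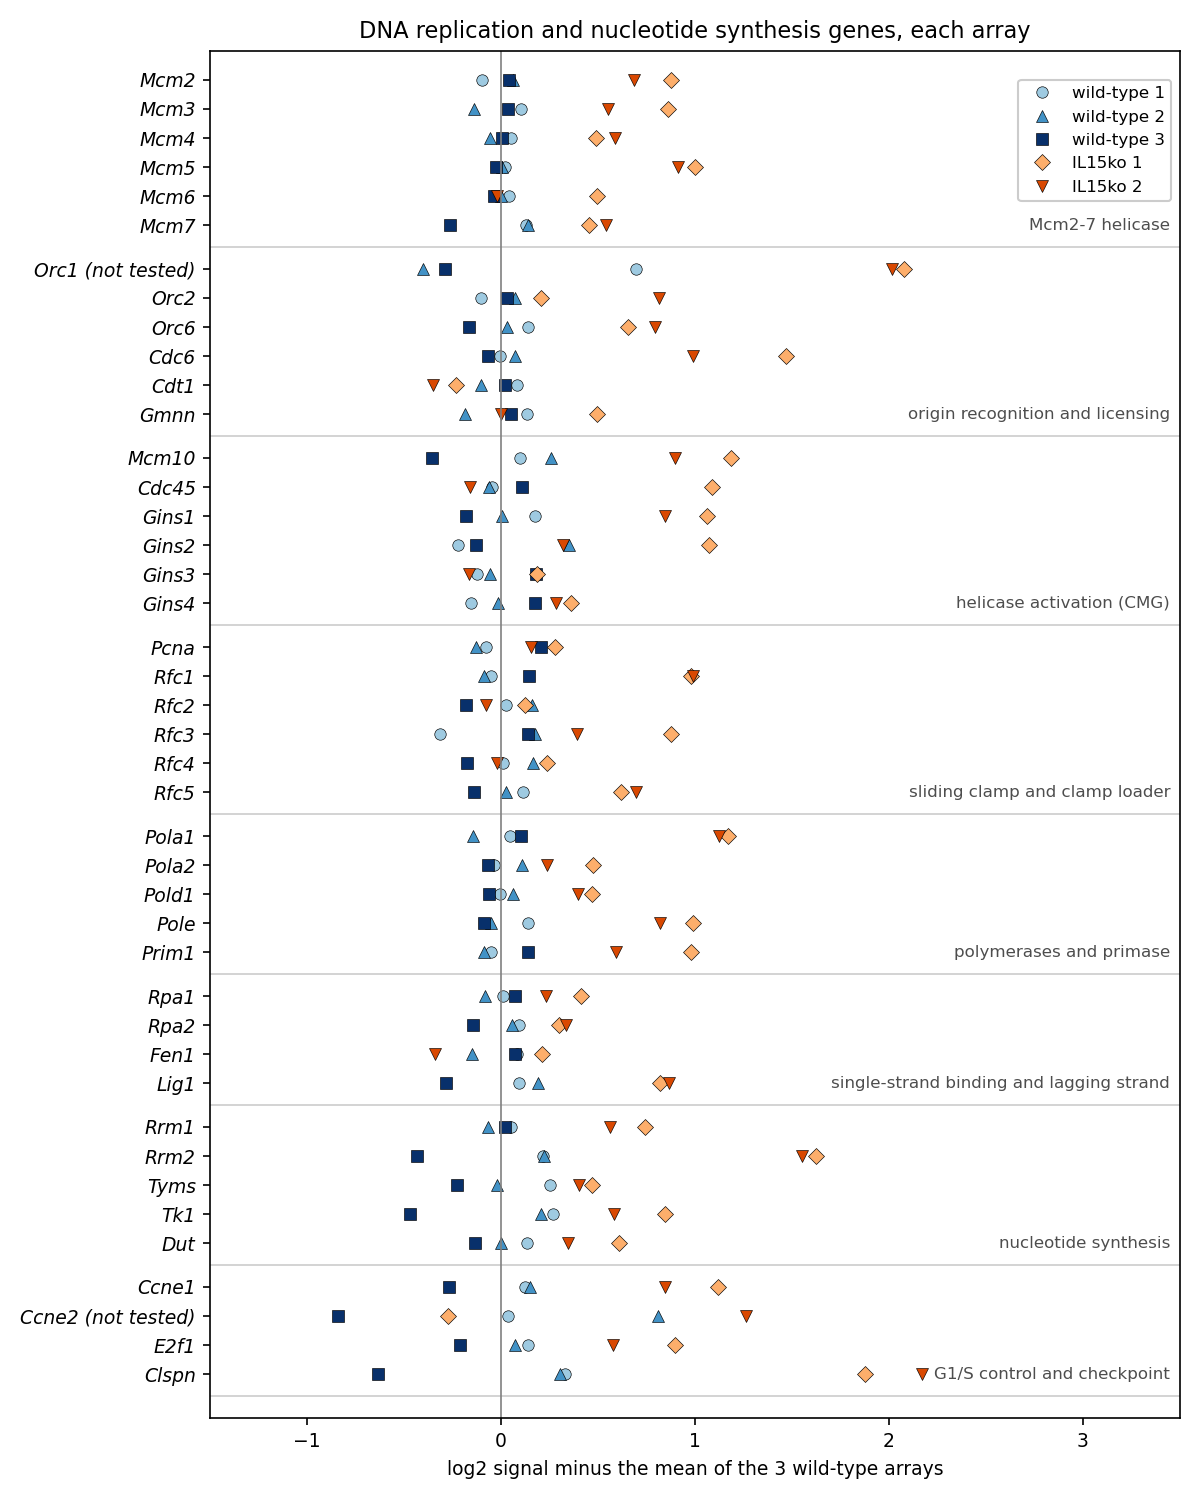
Signal of each of the 42 genes on each array, as log2 difference from the mean of the 3 wild-type arrays (x axis), grouped by role (rows); each marker is 1 array. In 30 of the 40 tested genes both IL15ko arrays (orange) lie to the right of all wild-type arrays (blue).

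The plot of each array shows how the groups separated. Both IL15ko arrays lay above all 3 wild-type arrays in 30 of the 40 genes (75%), against 25.1% of all tested genes. Counting both directions, the groups did not overlap in 31 of the 40, Cdt1 being the one gene with IL15ko lower, against 47.2% of all genes. IL15ko 1 alone lay above every wild-type array in 38 of the 40, and IL15ko 2 in 30, where the shares over all genes were 36.7% and 37.3%. IL15ko 2 was above IL15ko 1 in 9 of the 40, against 45.4% of all genes. The median gene of the set was 0.19 higher on IL15ko 1 than on IL15ko 2, and 0.04 higher over all genes. IL15ko 2 was also the dimmest array, with 33.9% of its probes above background, and the part of this in the gap was not tested. In RNA from bulk cells, more dividing cells and more RNA per cell cannot be told apart.

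The Mcm helicase, the ring that unwinds DNA at the fork, had differences above 0 in each of its 6 subunits, and 2 of them rose. Mcm5 had values of 0.25, 0.23 and 0.20 in wild-type 1 to 3, and 1.23 and 1.14 in IL15ko 1 and 2. Both IL15ko values were far above a tight wild-type group, and Mcm5 rose by 0.96 ± 0.12 (SE; 1.94-fold, 95% confidence interval 1.57 to 2.39, limma adjusted p = 0.0185). Mcm2 went from -1.16, -1 and -1.02 to -0.18 and -0.37, a rise of 0.78 ± 0.14 (1.72-fold, limma adjusted p = 0.0356). Mcm3, Mcm4 and Mcm7 had both IL15ko arrays above all wild-type ones but did not pass, with log2 differences of 0.70, 0.54 and 0.50 (limma adjusted p = 0.0645, 0.0646 and 0.149). Mcm6 was the subunit whose groups overlapped. It stood at 3.00, 2.96 and 2.93 in wild-type, at 3.46 in IL15ko 1 and at 2.94 in IL15ko 2, with an interval of its fold from 0.85 to 1.63.

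Among origin recognition and licensing genes 1 of 5 tested rose. Cdc6, the ATPase that helps to load the helicase, had wild-type values of -4.54, -4.46 and -4.60 and IL15ko values of -3.06 and -3.54, a rise of 1.23 ± 0.18 (2.34-fold, interval 1.7 to 3.23, limma adjusted p = 0.0254). Its second probe, dimmer and above background on 3 arrays, had a log2 difference of 1.57. Orc6, a subunit of the origin recognition complex, had separate groups and a difference of 0.73 ± 0.15 just short of the threshold (limma adjusted p = 0.0518). Orc2 had one of 0.51 (limma adjusted p = 0.199). Cdt1, the partner of Cdc6 in loading, was the tested gene of the whole set with the lowest difference. It stood at 1.15, 0.97 and 1.09 in wild-type and at 0.84 and 0.72 in IL15ko, and the difference of -0.29 ± 0.13 did not pass (limma adjusted p = 0.223). Gmnn, which encodes geminin, the inhibitor of Cdt1, had overlapping groups and a difference of 0.25 ± 0.20 (limma adjusted p = 0.47).

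Orc1, a subunit of the same complex, was well above background on 1 IL15ko array and on no wild-type array, and was not tested. Its values of -7.15, -8.25 and -8.14 in wild-type were those of probes at background, and it had -5.77 and -5.83 in IL15ko. No fold is given, since 4 of the 5 arrays did not measure it above background.

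Of the genes that activate the helicase 1 of 6 rose. Gins1, a subunit of the GINS complex, had wild-type values of -2.63, -2.80 and -2.98 and IL15ko values of -1.75 and -1.96, a rise of 0.95 ± 0.16 (1.94-fold, limma adjusted p = 0.0347). Mcm10 had one of the larger differences of the set at 1.04 ± 0.23, and values that did not overlap, but a wild-type spread from -3.13 to -2.52 (limma adjusted p = 0.0594). The other GINS subunits had unlike values. Gins2 had a difference of 0.70 ± 0.30 with overlapping groups, Gins4 one of 0.32 ± 0.15 and Gins3 one of 0.01 ± 0.18, and none of them passed. Cdc45 was -4.33 in IL15ko 1 but -5.58 in IL15ko 2, the lowest of all 5 arrays and not well above background there, and its difference was 0.46 ± 0.37.

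Of the genes of the clamp and its loader 1 of 6 rose. Rfc1, the large subunit of the loader, stood at -0.90, -0.93 and -0.70 in wild-type and at 0.14 and 0.15 in IL15ko, and rose by 0.99 ± 0.14 (1.98-fold, interval 1.56 to 2.51, limma adjusted p = 0.0219). Of the small subunits, Rfc5 had a difference of 0.66 ± 0.14 (limma adjusted p = 0.0534) and Rfc3 one of 0.63 ± 0.24 (limma adjusted p = 0.166), both with separate groups. Rfc2 and Rfc4 had overlapping groups and differences of 0.02 and 0.11, with intervals of the fold of 0.766 to 1.35 and 0.803 to 1.44. The 2 probes of Rfc4 disagreed in size, the dimmer one having a log2 difference of 0.56. Pcna, the sliding clamp and a common marker of dividing cells, stood at 1.21, 1.16 and 1.498 in wild-type and at 1.57 and 1.44 in IL15ko. IL15ko 2 was thus below wild-type 3, and the difference of 0.22 ± 0.16 did not pass (limma adjusted p = 0.42).

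Both IL15ko arrays lay above every wild-type array in all 5 polymerase and primase genes, against 25.1% of all tested genes, and 2 passed. Pola1, the catalytic subunit of the priming polymerase alpha, went from -3.22, -3.41 and -3.17 to -2.10 and -2.14, a rise of 1.15 ± 0.14 (2.21-fold, interval 1.74 to 2.82) with the smallest adjusted p of the set (limma adjusted p = 0.0177). Pole, the catalytic subunit of the leading-strand polymerase, went from -1.72, -1.91 and -1.95 to -0.88 and -1.04, a rise of 0.90 ± 0.14 (1.87-fold, limma adjusted p = 0.0287). Prim1, the primase, had a difference of 0.79 ± 0.17 (limma adjusted p = 0.0597). Pold1, the catalytic subunit of the lagging-strand polymerase, and Pola2, the second subunit of polymerase alpha, had 0.43 ± 0.12 and 0.35 ± 0.14.

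Of the single-strand binding and lagging-strand genes 0 of 4 passed in limma's fit, and 1 had an unadjusted p under 0.05. That gene was Lig1, the ligase that joins Okazaki fragments, at 0.41, 0.51 and 0.03 in wild-type and 1.14 and 1.18 in IL15ko (difference 0.84 ± 0.18, limma adjusted p = 0.0585). Rpa1 and Rpa2, subunits of the single-strand binding protein, had separate groups and differences of 0.32 each. Fen1, the flap endonuclease of the same step, had overlapping groups and a difference of -0.07 ± 0.21, with IL15ko 2 the lowest array at 0.48 and IL15ko 1 the highest at 1.02.

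Nucleotide supply genes had both IL15ko arrays above wild-type in all 5 cases, against 25.1% of all tested genes. In the list of 27 other nucleotide synthesis genes 11 did. Rrm2, the regulatory subunit of ribonucleotide reductase, whose level rises in S phase, stood at -0.32, -0.32 and -0.97 on the wild-type arrays and at 1.08 and 1.02 on the IL15ko arrays. Its rise of 1.59 ± 0.24 (3.01-fold, interval 1.97 to 4.59, limma adjusted p = 0.0268) was the largest of any gene of the set measured on all 5 arrays. Rrm1, the large subunit of the same enzyme, stood at -0.95, -1.07 and -0.99 and at -0.26 and -0.45. It rose by 0.65 ± 0.13 (1.57-fold, limma adjusted p = 0.0496). Tk1, the thymidine kinase of S phase, had a difference of 0.71 ± 0.27 and Dut, which removes dUTP, one of 0.47 ± 0.16, and neither passed. Tyms, thymidylate synthase, had one of 0.43 ± 0.18 and was above background on 1 of the 2 IL15ko arrays.

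Of the regulators of S phase entry Ccne1 and Clspn rose, Clspn having entered the test only through its IL15ko signal. Ccne1, which encodes cyclin E1, the partner of Cdk2 at the start of S phase, went from -1.44, -1.41 and -1.83 to -0.45 and -0.72, a rise of 0.98 ± 0.19 (1.98-fold, limma adjusted p = 0.0465). Its dimmer second probe, above background on 3 arrays, had a difference of 0.42. Clspn, the adaptor claspin of the replication checkpoint, was well above background on both IL15ko arrays (-4.75 and -4.46) and on no wild-type array (-6.30, -6.33 and -7.26). It was at least 3.91-fold higher in IL15ko, where each wild-type array enters at its dimmest signal above background or at that of Clspn if higher (limma adjusted p = 0.0328). Over the alternative settings its fitted difference ran from 0.58 to 2.19. E2f1, which encodes the founding E2F factor, had separate groups and a difference of 0.74 ± 0.18 that did not pass (limma adjusted p = 0.0742). Ccne2, cyclin E2, was not well above background in any of the 5.

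**Figure D2:**
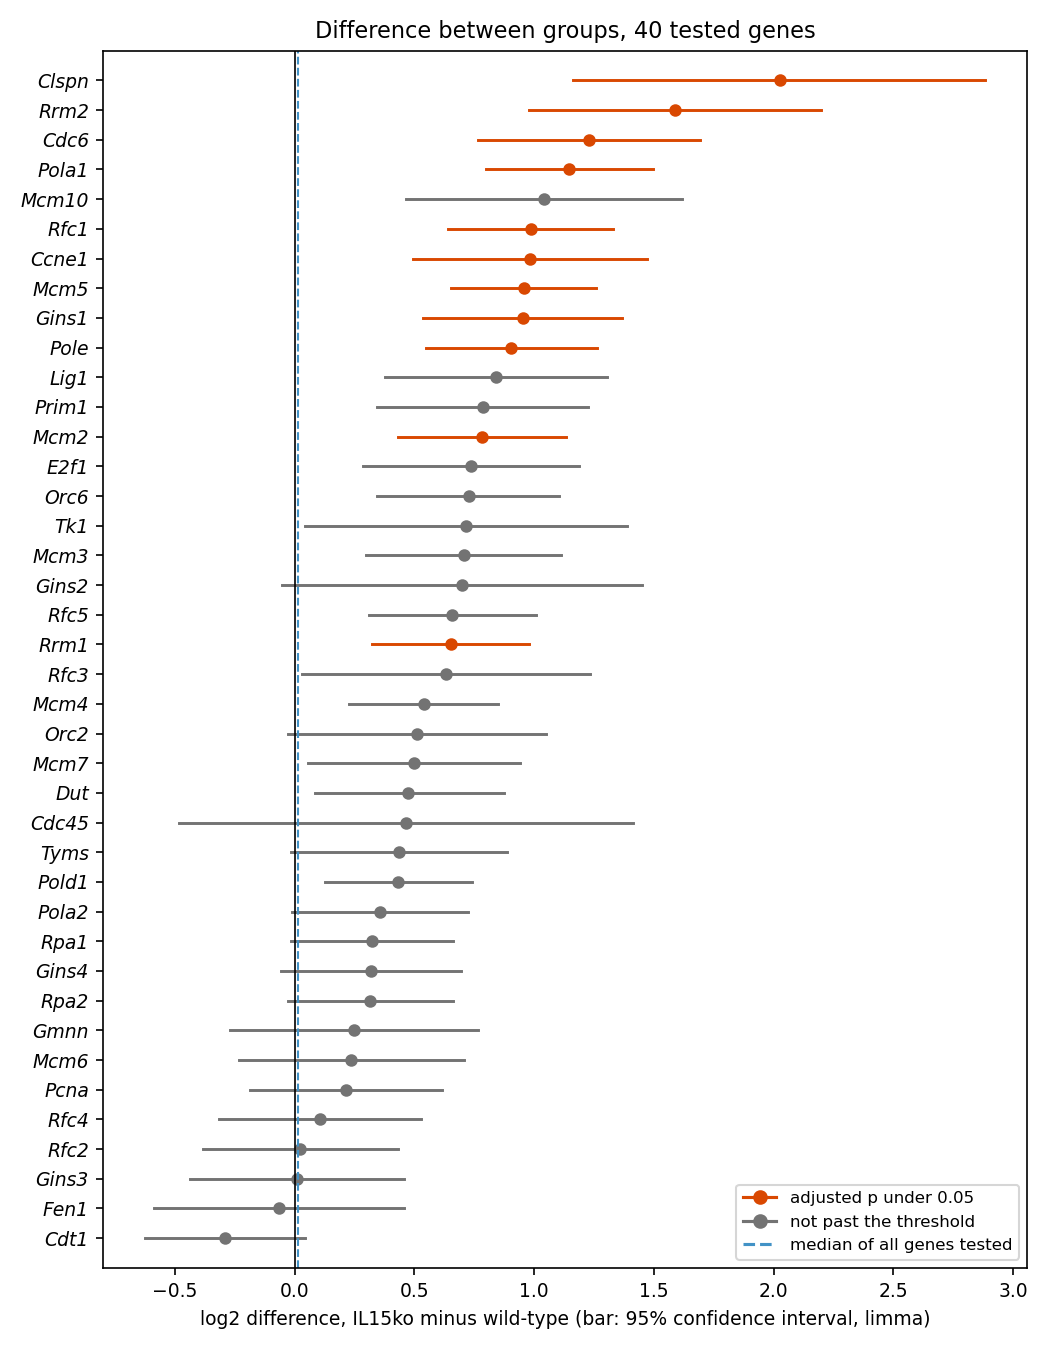
Log2 difference of IL15ko minus wild-type for each of the 40 tested genes (points) with its 95% confidence interval from limma (bars); orange marks the 11 genes with an adjusted p under 0.05 and the dashed line the median of all genes tested. Of the 40 points 38 lie right of 0, from -0.29 for Cdt1 to 2.02 for Clspn, whose wild-type signal was at background.

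The calls rest on few arrays, as the plot of differences with its wide intervals shows. Left out in turn, wild-type 1, wild-type 2 and IL15ko 1 each took the number of genes of the set past the threshold from 11 to 0, IL15ko 2 took it to 1 (Cdc6) and wild-type 3 to 5 (Clspn, Mcm5, Pola1, Rfc1 and Rrm2). The median difference stayed between 0.56 and 0.70 in these fits, which had 2 residual degrees of freedom in place of 3. Calls fell to 0 without a filter on dim probes and with wild-type 1 and 2 counted as 1 sample. They also fell to 0 with a background model with an offset of 50 and percentile scaling. In these settings 20 to 24 of the genes had an unadjusted p under 0.05. As reported, 24 of the 40 (60%) had such a p, against 27.5% of all tested genes. The share over all genes in the other settings is not given. Other settings gave up to 20 calls. Of 19 alternative settings, 7 lost the call of Rrm2, 8 those of Mcm5, Cdc6, Rfc1 and Pola1, 10 those of Gins1 and Pole, 11 that of Mcm2, 12 that of Ccne1 and 16 that of Rrm1. Clspn lost its call in 9 of the 18 settings that tested it. Genes near 0 or with unlike IL15ko arrays changed sign: without IL15ko 1, Cdc45 had a difference of -0.16 and Mcm6 one of -0.02, and without IL15ko 2, Fen1 had one of 0.21.

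**Figure D3:**
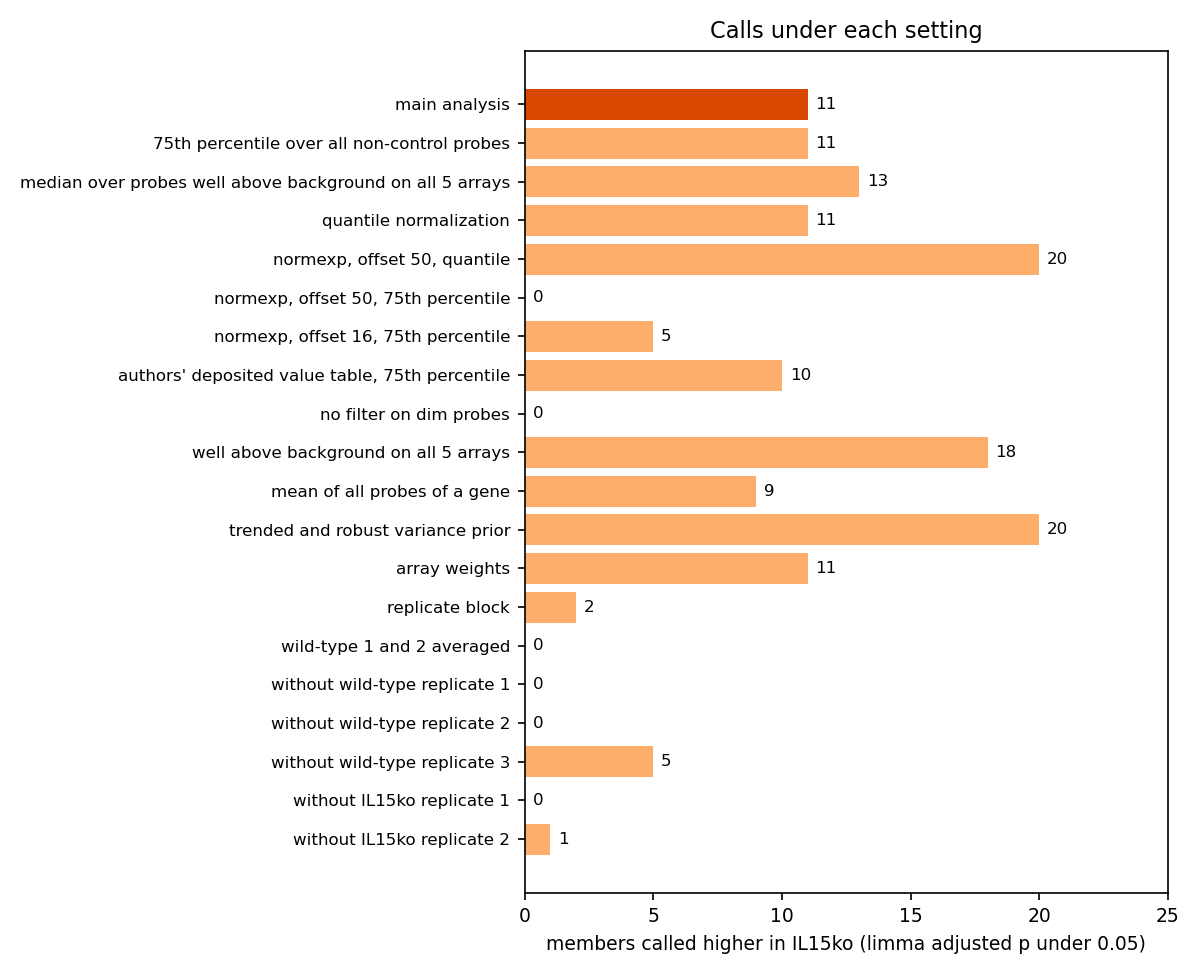
Number of genes of the set higher in IL15ko at a limma adjusted p under 0.05 (x axis, from 0) in the analysis as reported (dark bar) and in each of 19 alternative settings (light bars). The counts run from 0 to 20, against 11 as reported.

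Other genes of the pathway came from lists set by function, with earlier results of these data known, and their called members had limma adjusted p-values from 0.0177 to 0.0472. Of 29 tested genes of the fork and origin outside the set, 5 rose and 0 fell (median 0.34). They were Dna2 (3.61-fold in the fit, above background on 1 array of each group and named after its value was seen), Dscc1 (2.47-fold), which loads the clamp for cohesion, the helicase gene Recql4 (2.18-fold), and Timeless (2.11-fold) and Tipin (1.76-fold), the pair that protects the fork. Of 27 other nucleotide synthesis genes 3 rose and 0 fell (median 0.21): Dck (2.56-fold), the deoxycytidine salvage kinase, Atic (2.01-fold), which ends purine synthesis, and Shmt2 (1.82-fold), a mitochondrial source of one-carbon units. Chromatin assembly genes that work behind the fork had a median of 0.93, and 4 of 10 rose, namely Chaf1a (2.73-fold), Asf1b (2.49-fold), Uhrf1 (2.5-fold) and Hells (2.11-fold). Among 18 tested E2F, RB and G1/S kinase genes 3 rose, Cdk2 (2.49-fold), Rb1 (2.12-fold) and Tfdp1 (2.08-fold), with a median of 0.45. The RB protein restrains E2F, and Tfdp1 encodes the dimer partner of E2F factors. All of these counts stand against 3.75% of all tested genes, and no gene of these lists fell past the threshold.

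**Figure D4:**
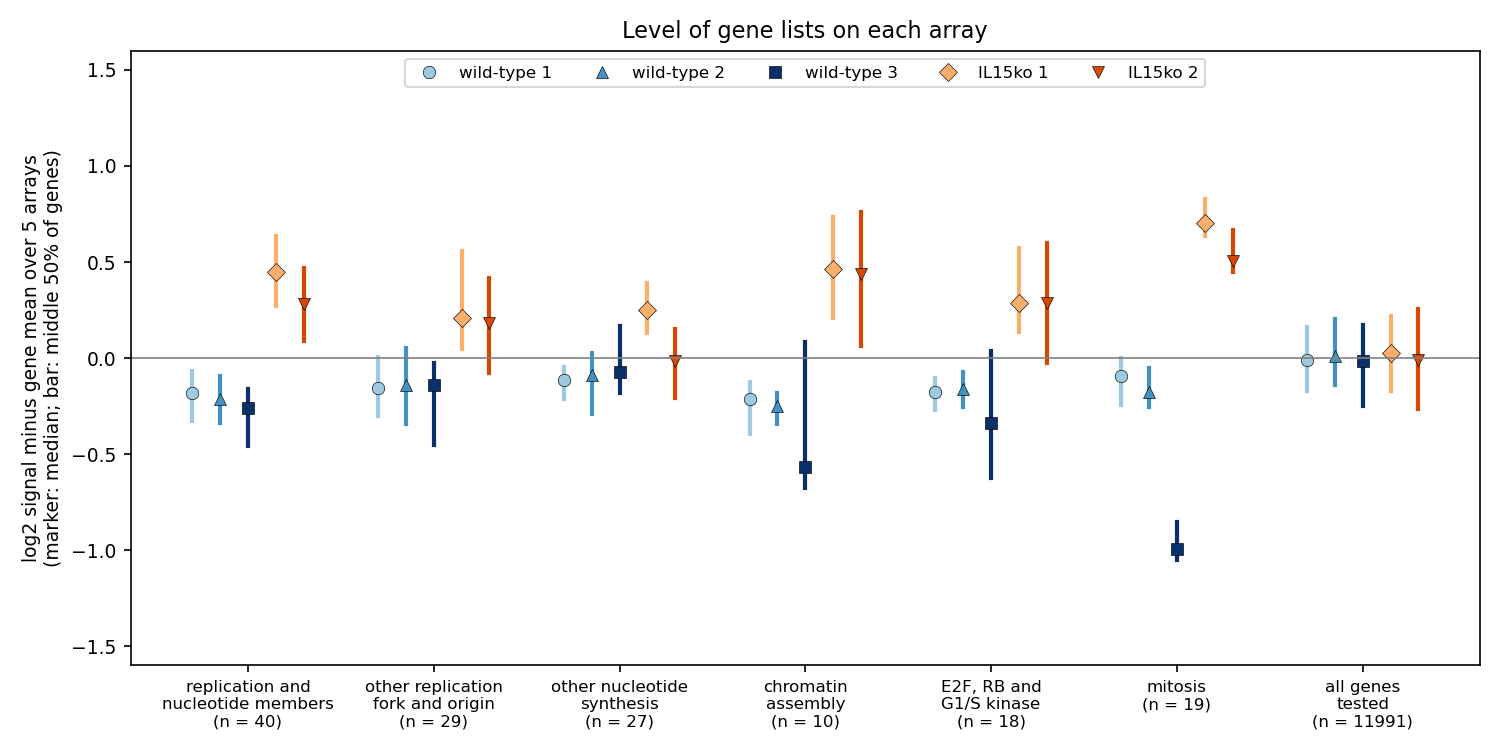
Level of gene lists on each array (y axis: log2 signal minus the mean of the gene over 5 arrays; marker: median, bar: 25th to 75th percentile of the genes). In the replication set the 3 wild-type arrays lie close together, while in the mitosis list wild-type 3 lies apart at a median of -0.996.

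The wild-type arrays stood farther apart in mitosis genes than in replication genes, as the plot of lists by array shows. The median deviations of the replication set were -0.18, -0.21 and -0.26 on wild-type 1 to 3, and 0.45 and 0.28 on IL15ko 1 and 2. Among the 3 wild-type arrays, wild-type 3 was the lowest in 22 of the 40 genes, against 42.1% of all tested genes. It was also the lowest of all 5 arrays in 22, against 24.8%, but higher IL15ko values by themselves raise that count. The median gene lay 0.10 lower on wild-type 3 than on wild-type 1 and 2. In the mitosis list wild-type 3 was the lowest array in 19 of 19 tested genes and lay 0.84 below the other wild-type arrays, with median deviations of -0.10, -0.18 and -0.996 on wild-type 1 to 3. Of those 19 genes 3 rose (Kif20a 2.73-fold, Cdk1 2.3-fold and Cenpa 1.93-fold), against 3.75% of all tested genes. Both IL15ko arrays lay above all wild-type arrays in 18 of the 19, against 25.1% of all tested genes. The median difference between the groups was 0.99, or 0.77 when IL15ko was set against wild-type 1 and 2 alone. For the replication set the same medians were 0.64 and 0.56. Among the genes of the set above background on all 5 arrays, wild-type 3 lay farthest below wild-type 1 and 2 in Tk1 (-1.87, against -1.13 and -1.19) and Rrm2 (-0.97, against -0.32 on both).

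The 3 tested genes outside the set whose profile over the 5 arrays was most like its mean were Avpi1, Pidd1 and Pdlim4, with Pearson correlations of 0.9995, 0.9993 and 0.999. Fam104a came next at the same rounded value as Pdlim4. With 5 arrays in 2 groups, these correlations are a description.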

How the data were processed

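Agilent one-colour arrays of 3 wild-type and 2 IL15ko thymic NKT samples were analysed. The scanner files are output of Agilent Feature Extraction for 1 array each, per the file headers, and the deposited intensities are on a linear scale. Limma is named, without settings, in the submitters' processing notes. The authors' deposited value table holds intensities that equal spot median minus local background plus a constant per array in bright spots, with column medians of 15.7 to 26, thus unscaled. It served as an alternative.

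Control and outlier spots were dropped, and spots of a probe were averaged as log2 values. The 75th percentile was that of the 18519 probes that all 5 arrays read well above background, since no array had more than 49.6% of its probes above background. Accessions were matched without versions to RefSeq's annotation of GRCm38.p6, naming 26425 of 55681 probes. No probe was saturated. The comparison used limma 3.58.1 (lmFit, eBayes; R 4.3.3) with no covariate (3 residual, 2.28 prior degrees of freedom), adjusted by Benjamini-Hochberg over 11991 genes at 0.05. On simulated data the fit recovered 28.4% of 2-fold, 74.6% of 4-fold and 90.9% of 16-fold changes, so a gene that did not pass may still differ. Errors are moderated standard errors and intervals are at 95%. The number of arrays limits the precision. With 3 arrays against 2, an exact permutation test of one gene cannot go below p = 0.1. The scanner files hold spot medians, which took the place of spot means in the normexp alternatives. Named were all 42 genes, list genes past the threshold (up to 4 per list with the smallest p, and any needed for a count) and marker genes at background. The genes and lists were chosen with earlier results of these data known.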

Additional observations from a re-analysis of the deposited data

How the results depend on the processing

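The median difference of the set was above 0 in every setting run and lay between 0.49 and 0.70. The difference was above 0 in 38 of the 40 genes in the main fit, and in 32 without IL15ko 1. In the alternatives that kept both IL15ko arrays, 0 genes of the set were called lower. That count says little where few genes were called lower at all: 1 with normexp at 50 and percentile scaling, 3 without the filter and 8 without wild-type 1. The number of calls did not hold. Against 450 genes higher, 429 lower and 11 of the set higher, a normexp background correction with an offset of 16 gave 187, 150 and 5. With an offset of 50 it gave 823 higher and 20 of the set under quantile normalization, but 0 and 1 over all genes and 0 of the set when scaled by the 75th percentile (24 of the set with an unadjusted p under 0.05), a setting chosen after seeing the data. No filter on dim probes gave 0, 3 and 0 (21 of the set at unadjusted p under 0.05), a filter on all 5 arrays 710 higher and 18 of the set, and a trended, robust prior 817, 692 and 20. The cause was not tested, except that the filters change how many genes are tested (20009 and 9761). Taking the mean of wild-type 1 and 2 as 1 sample gave 33, 63 and 0 (20 at unadjusted p under 0.05). Leaving out 1 array gave 1 to 373 genes higher, 8 to 410 lower and 0 to 5 of the set, with 20 to 26 of the set at unadjusted p under 0.05. Those fits have fewer samples. The counts at an unadjusted p under 0.05 were not set against all genes in each setting. In the main fit 24 of the 40 (60%) had such a p, against 27.5% of all tested genes. With the replicate number as a block the counts were 138, 241 and 2 (Clspn and Rrm2). The labels do not say whether the numbers pair the samples. Deviations of same-numbered arrays correlated at -0.129 and 0.209 over genes. These values cannot decide it, because the deviations of 2 IL15ko arrays mirror each other. The median of all genes shifted by 0.228 without the filter, 0.132 with normexp at 16 and 0.202 at 50 with percentile scaling, and by at most 0.063 otherwise. Scaling by the percentile of all probes, the median, quantiles, the authors' deposited table, all probes of a gene and array weights gave 9 to 13 of the set. Reversed signs, all of differences that did not pass, were seen for Gins3 (-0.038, -0.017 and -0.007 with normexp at 50 and 16 with percentile scaling and in the deposited table, -0.035 with wild-type 1 and 2 averaged, and -0.165 to 0.184 without 1 array), Rfc2 (-0.020 with array weights, -0.068 with the block, -0.079 to 0.125 without 1 array), and, over the fits without 1 array, Cdc45 (-0.163 to 1.089), Rfc4 (-0.024 to 0.238), Mcm6 (-0.021 to 0.493), Gmnn (-0.003 to 0.496) and Fen1 (-0.339 to 0.209). The dim signals of Orc1, Ccne2 and wild-type Clspn limit what can be said of them.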
